A study of Rattus norvegicus with 6 samples.

Results

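Carbonic anhydrases were followed in the gastrocnemius of olanzapine-infused and vehicle-infused rats through 6 genes, Car2, Car3, Car4, Car5b, Car8 and Car14, out of 26406 genes in the expression table. The genes were taken by symbol, with case ignored. Where a symbol has several rows, the row is selected on the highest mean FPKM over the 6 rats, but each of the 6 symbols had 1 row, so no measured level decided anything. All 6 averaged 1 FPKM or more over the rats, the filter on low values, and were tested. FPKM counts fragments per kilobase of transcript, scaled to the reads mapped in the library, and so allows for transcript length when levels of different genes are compared. In the olanzapine rats Car3 fell, to a level 4.04-fold below that of the vehicle rats. It passed the test as lower, as did 0.457% of all tested genes, but not with any 1 rat left out. No other member passed the test. Car14 (limma adjusted p = 0.189) was higher in all olanzapine rats than in any vehicle rat, as were 5.12% of all tested genes.

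The RNA came from whole gastrocnemius, a calf muscle of mixed fiber types, taken from 6 male Sprague Dawley rats of the Crl:SD strain, 3 in each group. All rats were single-housed and carried a venous catheter. The vehicle rats, numbered 3, 9 and 11, weighed 382, 382 and 356 g and received the vehicle of the drug, a saline solution, at the same rate and volume. The olanzapine rats, numbered 4, 10 and 12, weighed 398, 366 and 400 g and received olanzapine, a second-generation antipsychotic drug, as a loading dose of 1 mg per 100 g of body weight in 0.5 h, followed by 0.04 mg per 100 g each hour during 23.5 h. No other dose or time was analysed here, and each rat gave 1 library.

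Carbonic anhydrases are zinc enzymes that interconvert carbon dioxide and water with bicarbonate and a proton. The mammalian family is divided by where the enzyme works. Some members are soluble in the cytosol, some lie in the mitochondrial matrix, some are held at the cell surface with the active site outside the cell, and a few related proteins have lost catalysis. In muscle the enzymes take part in carbon dioxide removal and in the buffering and export of the protons that accompany lactate. Car3 is the characteristic cytosolic form of slow and oxidative fibers, with weak hydratase activity, and it is also abundant in adipocytes.

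The members lie at separate loci of the Rn5 assembly. Car2 (ENSRNOG00000009629, chr2:107871642-107886834) and Car3 (ENSRNOG00000010079, chr2:107900582-107909291) are neighbours 13748 bases apart and, with Ca1 and Car13, form a run of 4 cytosolic carbonic anhydrase genes over 214 kb with no other listed locus between them. Car14 (ENSRNOG00000023162, chr2:217500705-217507185) is on the same chromosome outside that run. Car4 (ENSRNOG00000002916, chr10:72179404-72188138), Car8 (ENSRNOG00000005669, chr5:26010375-26106856) and Car5b (ENSRNOG00000029330, chrX:32609746-32652918) lie elsewhere. The library kit does not mark strand, but no member overlaps another listed locus. The closest neighbour of a member is Aph1a, 715 bases from Car14. Car4, at a mean of 7.06 FPKM, lies 1977 bases from a locus without a symbol at a mean of 4464 FPKM. Whether reads from that locus reached Car4 was not tested.

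For the 2 cell-surface members, Car14 and Car4, which differed in how their levels stood between the groups, the promoter sequences are shown, from 250 bases before to 50 after the start of the gene. They come from RefSeq on build GRCr8, where promoters of 3 of the 6 members were matched, and read 5′ to 3′ on the strand of the gene. Capitals mark E-boxes, CANNTG, the motif bound by myogenic and other helix-loop-helix factors.
Car14 promoter, GRCr8 chr2:186138115-186138414, minus strand: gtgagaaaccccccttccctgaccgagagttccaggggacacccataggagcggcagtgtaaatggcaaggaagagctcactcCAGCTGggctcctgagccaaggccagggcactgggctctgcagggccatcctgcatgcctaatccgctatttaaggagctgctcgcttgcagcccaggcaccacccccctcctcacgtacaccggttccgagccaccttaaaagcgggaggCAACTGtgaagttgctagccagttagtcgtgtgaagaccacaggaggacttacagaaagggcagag
Car4 promoter, GRCr8 chr10:70325108-70325407, plus strand: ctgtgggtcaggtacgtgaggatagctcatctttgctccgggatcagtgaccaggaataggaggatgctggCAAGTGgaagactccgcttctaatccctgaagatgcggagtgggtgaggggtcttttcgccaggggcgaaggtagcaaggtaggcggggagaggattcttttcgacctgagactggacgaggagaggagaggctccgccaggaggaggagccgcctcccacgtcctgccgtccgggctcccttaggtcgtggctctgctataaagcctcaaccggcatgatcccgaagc
The palindrome CANNTG reads the same on both strands. It was found at 2 places for Car14 and at 1 for Car4, and the third promoter matched, that of Car5b, held none. Of all 33469 promoters of this length 72.1% held at least 1, so a match is common. The TATAAA string, also searched on both strands, was found in Car4 and in 14.2% of all promoters, but not in Car14 or Car5b. In Car4 it stood 19 bases after the start of the gene, not before it. These are descriptions of letters, and no binding was measured.

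Depth and tissue were as follows. The FPKM carry no read totals, but the spacing of the smallest values puts the depth of the other rats at 0.440 to 0.918 of that of vehicle rat 3, vehicle rat 11 being the shallowest. Between 13996 and 14795 genes per rat were above 0. All 6 skeletal muscle markers were abundant, with summed levels of 86764 to 113253 FPKM in the vehicle rats and 113200 to 155865 FPKM in the olanzapine rats. Mylpf, Tnnt3, Myh4 and Atp2a1 among them are also fast IIb fiber markers. Higher without overlap were 2, Mylpf and Tnnt3, against 5.12% of all tested genes, while Acta1 and Ckm overlapped between groups. Of the 10285 genes tested with limma, 52, or 0.506%, passed an adjusted p of 0.05, of which 47 (0.457%) were lower and 5 (0.0486%) higher in the olanzapine rats. Over all tested genes the median log2 fold change was -0.11.

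Car3, the cytosolic enzyme, was the dominant member in every rat. Its level was 5360, 6296 and 3736 FPKM for vehicle rats 3, 9 and 11, and 1420, 855 and 1532 FPKM in olanzapine rats 4, 10 and 12. The groups did not overlap, and the highest olanzapine rat was below the lowest vehicle rat, rat 11. The means were 5131 ± 1296 FPKM (SD, n = 3) with vehicle and 1269 ± 363 FPKM (SD, n = 3) with olanzapine, a 4.04-fold lower level. On the log2(FPKM + 1) scale Car3 fell by 2.03 (standard error 0.30, 95% interval -2.71 to -1.35, limma adjusted p = 0.0323). By mean level it ranked 34 among all genes in the vehicle rats and 68 in the olanzapine rats. Car3 held 0.512% ± 0.152 of all FPKM with vehicle and 0.120% ± 0.0264 with olanzapine (SD, n = 3 each; exact permutation test, two-sided, p = 0.1, the smallest that 3 rats against 3 allow). In bulk muscle, fewer cells that express Car3 and less Car3 RNA per cell cannot be told apart.

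The call rested on all 6 rats. With vehicle rat 3, 9 or 11 left out the adjusted p became 0.133, 0.0993 or 0.106. With olanzapine rat 4, 10 or 12 left out it became 0.0783, 0.0842 or 0.141, while the log2 fold change stayed between -2.24 and -1.76. The call was also lost with median-ratio size factors (log2 fold change -1.85, adjusted p = 0.0865) and with no filter on low values (-2.03, 0.101).

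**Figure D1:**
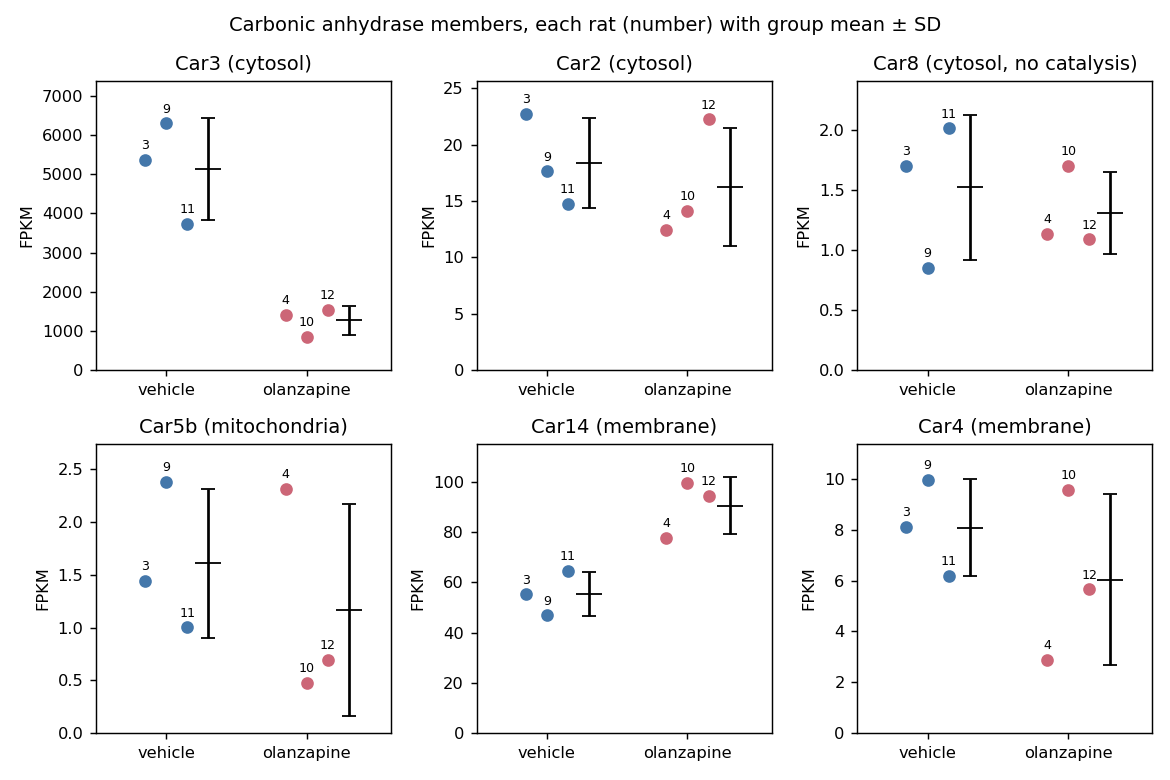
Level in FPKM (y axis, from 0, a separate scale for each gene) of the 6 carbonic anhydrase genes in each rat. Points are rats with their numbers, blue for vehicle and red for olanzapine, and the bars give the group mean ± SD (n = 3). Car3 and Car14 have groups that do not overlap, in opposite directions, and the other 4 genes have groups that overlap.

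Slow fiber markers were lower with Car3, and fast IIb fiber markers were higher. The authors had listed all of these markers with their levels in these same rats, sorted as slow or fast from literature and gene databases. The markers were taken here with those levels known, so the counts below are a description and no test of the lists. Of 10 slow fiber markers tested, 9 passed the test as lower, against 0.457% of all tested genes, and Tnnc1 did not (limma adjusted p = 0.0839). All 10 were lower without overlap, against 14.6% of all tested genes, with a median log2 fold change of -2.56. Their summed level ranged from 18924 to 34210 FPKM in the vehicle rats and from 2830 to 7295 FPKM in the olanzapine rats, and none was at 0. Of 10 fast IIb fiber markers none passed the test, 6 had an unadjusted p under 0.05, against 13.2% of all tested genes, and 7 were higher without overlap, against 5.12%. Their summed level was 63795 to 83320 FPKM with vehicle and 108703 to 145657 FPKM with olanzapine. The part of fiber composition in the Car3 result was not tested.

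Adipocytes are a further source of Car3 RNA, and their markers varied widely between rats of the same group. None of the 6 tested of 7 listed adipocyte markers passed the test, and 0 had an unadjusted p under 0.05. Their summed level was 264 to 433 FPKM in the vehicle rats and 246 to 794 FPKM in the olanzapine rats. Most of that sum was Fabp4 in every rat, at 231 to 315 FPKM with vehicle and 218 to 528 FPKM with olanzapine, so the sum says little of the other markers. Adipoq, adiponectin, was at 25.5 FPKM in vehicle rat 9 and 36.6 FPKM in olanzapine rat 4, and at 0.908 to 2.26 FPKM in the other 4 rats. Plin1 was listed at 0 in olanzapine rat 10 and Lep in vehicle rat 11. Without vehicle rat 9 and olanzapine rat 4, a choice made after the values were seen, the log2 fold change of Car3 was -1.97 (adjusted p = 0.216, 2 rats a group).

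The genes with a pattern most like that of Car3 were looked for among 3668 named genes whose mean was 10 FPKM or more, by the root mean square distance between log2(FPKM + 1) values centred on their mean over the 6 rats. Sln, which encodes sarcolipin, a small inhibitor of the sarcoplasmic reticulum calcium pump, was the nearest at a distance of 0.193. Its level was 165, 227 and 109 FPKM for vehicle rats 3, 9 and 11, and 44.2, 21.1 and 36.2 FPKM in olanzapine rats 4, 10 and 12. Both Sln and Car3 were highest in rat 9 and lowest in rat 10, and within the vehicle group both were lowest in rat 11. Within the olanzapine group Car3 was highest in rat 12 and Sln in rat 4. The next were Smtnl1, a regulator of contractile proteins, at 0.354, Fhl1, a LIM domain protein of the sarcomere, at 0.366, Ctgf, a secreted matrix-associated factor, at 0.373, and Hspb7, a small heat shock protein of muscle, at 0.374. Since the 5 genes were picked for likeness to Car3 over the same rats, their lower levels and their likeness rat by rat followed from the choice and are a description. Their log2 fold changes ran from -2.27 for Sln to -1.65 for Ctgf. The other members stood farther from Car3, from 0.907 for Car5b to 1.45 for Car14.

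**Figure D2:**
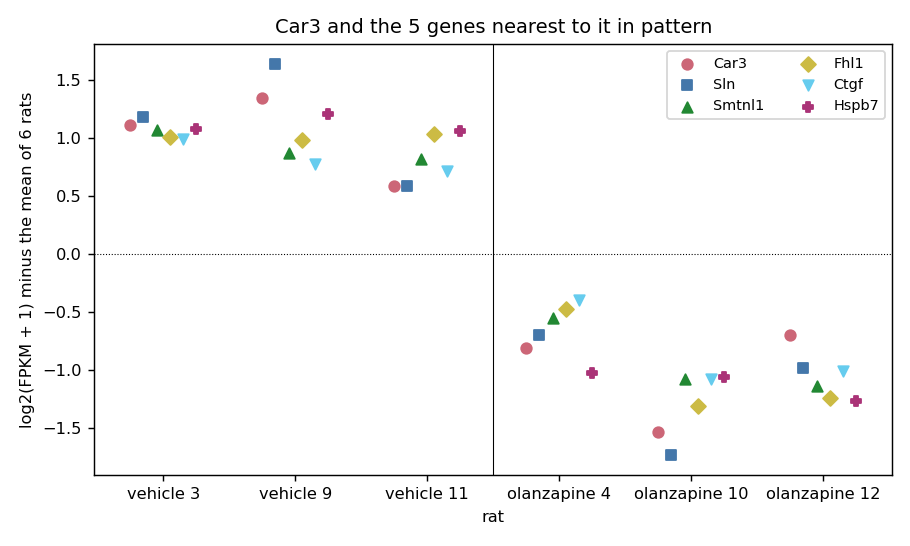
Log2(FPKM + 1) minus its mean over 6 rats (y axis) for Car3 and the 5 genes nearest to it in pattern, by rat (x axis; the vertical line divides vehicle from olanzapine rats). Each symbol is 1 gene in 1 rat. All 6 genes are above 0 in the 3 vehicle rats and below 0 in the 3 olanzapine rats, and Sln lies closest to Car3.

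Car2, the fast cytosolic enzyme best known from red blood cells, osteoclasts and kidney, is the chromosomal neighbour of Car3 and did not pass the test. It was at 22.7, 17.6 and 14.8 FPKM for vehicle rats 3, 9 and 11, and at 12.4, 14.1 and 22.2 FPKM in olanzapine rats 4, 10 and 12. The groups overlapped, since olanzapine rat 12 was close to the highest vehicle rat. The means were 18.4 ± 4.03 and 16.3 ± 5.24 FPKM (SD, n = 3 each), with a log2 fold change of -0.19 (95% interval -0.76 to 0.38, limma adjusted p = 0.747). The interval of Car2 does not reach the -1.35 that bounds the interval of Car3. The Car3 to Car2 ratio of levels was 282 ± 65.8 with vehicle and 81.3 ± 28.8 with olanzapine, with no overlap between groups (exact permutation test, two-sided, p = 0.1, the smallest possible). Red blood cell markers, 7 of 9 with a row, had 0 calls and summed to 1725 to 13885 FPKM in the vehicle rats and 4641 to 9611 FPKM in the olanzapine rats. Car2 was highest in vehicle rat 3, where these markers were lowest and Ahsp was listed at 0. The part of red blood cell RNA in the Car2 values was not tested.

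Car8 is a carbonic anhydrase-related protein that lacks catalysis and binds the IP3 receptor, whose affinity for its ligand it lowers in mouse brain. It was at 1.70, 0.848 and 2.01 FPKM for vehicle rats 3, 9 and 11, and at 1.14, 1.70 and 1.09 FPKM in olanzapine rats 4, 10 and 12. All olanzapine rats lay within the range of the vehicle rats. The log2 fold change was -0.11 (standard error 0.25, 95% interval -0.68 to 0.46, limma adjusted p = 0.862), and it was 0.037 without vehicle rat 11. Of 5 genes listed for IP3 receptors and IP3 kinases, 3 were tested and none passed. Itpkb, a kinase that phosphorylates IP3, was at -0.54 (adjusted p = 0.356), and the receptors Itpr2 and Itpr1 were at -0.15 (0.779) and -0.03 (0.955) on the log2 scale.

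Car5b, the mitochondrial matrix form found in many tissues, supplies bicarbonate to carboxylases of the matrix. Its level was 1.44, 2.38 and 1.00 FPKM for vehicle rats 3, 9 and 11, and 2.32, 0.475 and 0.694 FPKM in olanzapine rats 4, 10 and 12. Olanzapine rat 4 stood with the vehicle rats, and the other 2 olanzapine rats were below all vehicle rats. The log2 fold change was -0.33 (standard error 0.34, 95% interval -1.12 to 0.45, limma adjusted p = 0.674). The highest rat of each group, vehicle rat 9 and olanzapine rat 4, was also the one with the highest Adipoq. The part of adipocyte RNA in the Car5b values was not tested.

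Enzymes that fix bicarbonate were looked at beside Car5b. Of 9 genes listed, 8 were tested and 0 passed the test. Not all of the 9 encode carboxylases. Hlcs, which was tested, encodes the ligase that attaches biotin to them, and Cps1, a synthetase, was listed at 0 in every rat. An unadjusted p under 0.05 was found for 3, against 13.2% of all tested genes. The same 3 were lower without overlap, against 14.6% of all tested genes. They were Pcca, the alpha subunit of mitochondrial propionyl-CoA carboxylase, at 11.9 ± 2.05 and 7.17 ± 1.28 FPKM (SD, n = 3 each; log2 fold change -0.66, limma adjusted p = 0.237), Mccc1 of leucine breakdown (-0.57, 0.290) and Acaca, the cytosolic acetyl-CoA carboxylase of fatty acid synthesis (-0.51, 0.358). The median log2 fold change of the 8 genes was -0.28, beside -0.11 for all tested genes.

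Car14, a transmembrane enzyme with its active site outside the cell, is known in mouse from the surface and sarcoplasmic reticulum of muscle fibers. It was at 55.2, 46.8 and 64.5 FPKM for vehicle rats 3, 9 and 11, and at 77.8, 99.7 and 94.4 FPKM in olanzapine rats 4, 10 and 12. The groups did not overlap, and the lowest olanzapine rat, rat 4, was above the highest vehicle rat, rat 11. The means were 55.5 ± 8.82 and 90.7 ± 11.4 FPKM (SD, n = 3 each), a 1.63-fold higher level. The log2 fold change was 0.70 (standard error 0.19, 95% interval 0.28 to 1.13), with an unadjusted p of 0.00495 and a limma adjusted p of 0.189, so the difference did not pass the test over all genes. It was positive with any rat left out, from 0.59 to 0.81. Summed levels of fast IIb fiber markers, given above for Car3, were also higher in all olanzapine rats than in any vehicle rat, and their part in the Car14 values was not tested.

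Car4 is anchored to the outer surface of the plasma membrane by a lipid tail and is known from capillary endothelium and the muscle fiber surface. It was at 8.13, 9.98 and 6.18 FPKM for vehicle rats 3, 9 and 11, and at 2.87, 9.57 and 5.66 FPKM in olanzapine rats 4, 10 and 12. Olanzapine rat 4 was low and rat 10 was within the vehicle range, so the groups overlapped. The means were 8.09 ± 1.90 and 6.03 ± 3.37 FPKM (SD, n = 3 each), with a log2 fold change of -0.47 (95% interval -1.26 to 0.32, limma adjusted p = 0.552). The 7 capillary endothelium markers had 0 calls and summed to 99.9 to 125 FPKM with vehicle and 94.98 to 131 FPKM with olanzapine. Of the 7, 6 had a log2 fold change below 0, as did 64.3% of all tested genes. Among them 1, Kdr, was lower without overlap (log2 fold change -0.80, limma adjusted p = 0.290), against 14.6% of all tested genes. Olanzapine rat 4, with the lowest Car4, had the highest sum of the 7 endothelium markers. The part of endothelial RNA in the Car4 values was not tested.

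Among the 6 members 1 passed the test, Car3, as lower, against 0.457% of all tested genes. None passed as higher, against 0.0486%, and 2, Car3 and Car14, had an unadjusted p under 0.05, against 13.2%. The same 2 had groups without overlap, as did 19.7% of all tested genes, 14.6% lower and 5.12% higher. With 6 genes, picked when the results were known, nothing particular to the list can be read from these counts. The median log2 fold change of the members was -0.26.

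**Figure D3:**
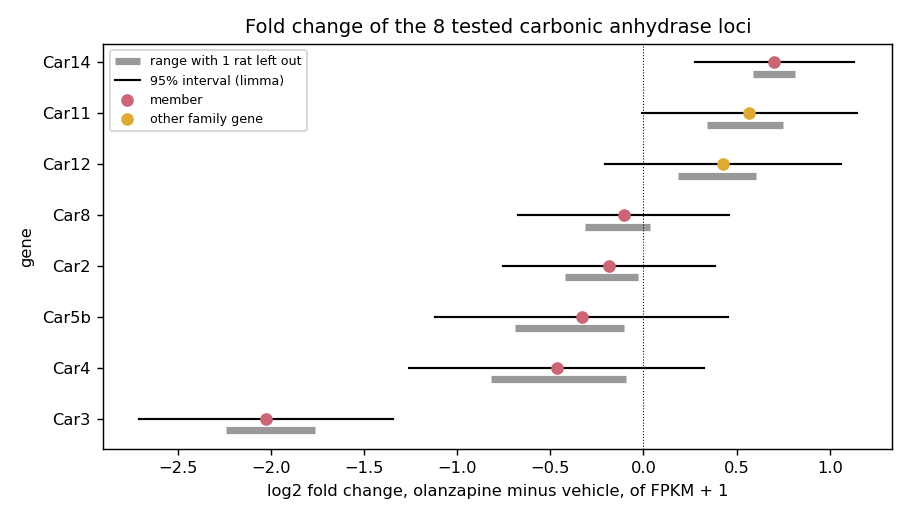
Log2 fold change of FPKM + 1, olanzapine minus vehicle (x axis), of the 8 tested carbonic anhydrase loci (y axis). Points are estimates, red for the 6 members and yellow for 2 other family genes, thin lines are 95% limma intervals and thick grey bars the range with 1 rat left out. The intervals of Car3 and Car14 lie on opposite sides of 0, and those of the other 6 genes cross it.

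The make-up of the family's RNA followed from these levels. The summed level of the 6 members was 5449, 6374 and 3824 FPKM for vehicle rats 3, 9 and 11, and 1517, 981 and 1656 FPKM in olanzapine rats 4, 10 and 12. The groups did not overlap. Car3 was 98.4, 98.8 and 97.7% of this sum in the vehicle rats and 93.6, 87.2 and 92.5% in the olanzapine rats, a mean of 98.3% ± 0.552 against 91.1% ± 3.44 (SD, n = 3 each; exact permutation test, two-sided, p = 0.1, the smallest possible). The other 5 members together were at 85.1 ± 6.46 FPKM with vehicle and 115 ± 16.3 FPKM with olanzapine, higher in all olanzapine rats, and most of that sum was Car14. The level of Car3 was 96.5 ± 38.2 times that of Car14 with vehicle and 14.4 ± 5.10 times with olanzapine (SD, n = 3 each). Both ratios of Car3 to another member were chosen after the values were seen.

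The order of levels was alike in both groups at the top. Car3 was above Car14, Car14 above Car2 and Car2 above the next gene, each without overlap between neighbours in either group. Below them Car4 and Car11 overlapped each other in both groups and exchanged places. Car5b, Car8 and Car12 formed the lowest run, in which no neighbour in the order was separated from the next by more than the spread between rats.

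The rest of the family was sparse in this muscle. All 10 other carbonic anhydrase genes had a row, 2 were tested, 4 were below the filter and 4, Car5a, Car7, Ca10 and Car15, were listed at 0 in every rat. Car11, a secreted related protein without catalysis, was at 7.59, 6.14 and 3.88 FPKM for vehicle rats 3, 9 and 11 and at 8.57, 7.25 and 11.4 FPKM in olanzapine rats 4, 10 and 12. The groups overlapped only through olanzapine rat 10 and vehicle rat 3, and the log2 fold change was 0.57 (95% interval -0.01 to 1.14, limma adjusted p = 0.380). Car11 lies 638 bases from Dbp, a clock-controlled gene at a mean of 76.4 FPKM.

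Car12, a transmembrane enzyme, was at 1.44, 0.360 and 1.08 FPKM with vehicle and at 1.72, 1.07 and 1.98 FPKM with olanzapine, in the same order of rats. The groups overlapped, with a log2 fold change of 0.43 (95% interval -0.21 to 1.06, limma adjusted p = 0.513). Car9, a further transmembrane enzyme, known for its induction by low oxygen, was at 0.319 FPKM or less in the vehicle rats and 0.410 FPKM or less in the olanzapine rats, with overlap. Car14 made up 85.4% ± 3.87 of the summed level of Car4, Car9, Car12 and Car14 with vehicle and 92.2% ± 2.11 with olanzapine (SD, n = 3 each).

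The lowest genes rest on very few reads. Car6, the enzyme secreted in saliva, was listed at 0 in all vehicle rats and was at 0.335, 0.256 and 0.203 FPKM in olanzapine rats 4, 10 and 12, values that fit 4, 3 and 2 reads. With no filter on low values the limma unadjusted p of Car6 was 0.00142 and its adjusted p was 0.194. Ca1, the red blood cell enzyme, was above 0 in 5 rats at values that fit 1 or 2 reads each, and Car13, a cytosolic enzyme, was above 0 in 2 vehicle rats at a value that fits 1 read each. None of these genes passed the test with no filter on low values, and so few reads limit what it can detect.

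Transporters that carry the substrates and products of the enzymes were read from the same fit. Of 14 bicarbonate transporter genes listed, 4 were tested, 1 passed as lower (0.457% of all tested genes) and none as higher (0.0486%), with a median log2 fold change of -0.18. The gene that passed was Slc4a3, the anion exchanger of heart and other excitable tissues, which trades bicarbonate for chloride. It was at 6.59, 6.49 and 7.49 FPKM for vehicle rats 3, 9 and 11, and at 2.12, 0.529 and 1.04 FPKM in olanzapine rats 4, 10 and 12. The groups were far apart, and the spread within the vehicle group was small. Slc4a3 fell by 1.88 on the log2 scale (standard error 0.27, 95% interval -2.48 to -1.27, limma adjusted p = 0.0279). The adjusted p was 0.122, 0.0958 and 0.159 without vehicle rats 3, 9 and 11, 0.0697 and 0.184 without olanzapine rats 10 and 12, and 0.00969 without olanzapine rat 4. With no filter on low values it was 0.0874.

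Of 14 genes listed for proton and lactate transport, 8 were tested and none passed. Among the 8, Bsg and Emb encode partner proteins of the transporters and not transporters. An unadjusted p under 0.05 was found for 1, a share close to the 13.2% of all tested genes. That gene was Slc16a1, the monocarboxylate transporter MCT1 of oxidative fibers, which takes up lactate with a proton. It was at 42.2, 25.8 and 39.5 FPKM for vehicle rats 3, 9 and 11, and at 17.4, 14.3 and 11.5 FPKM in olanzapine rats 4, 10 and 12. All olanzapine rats were below all vehicle rats, with a log2 fold change of -1.25 (95% interval -1.78 to -0.71, limma adjusted p = 0.0752). It passed when the test was limited to genes averaging 10 FPKM or more (adjusted p = 0.0299). Slc16a3, the transporter MCT4 of glycolytic fibers, had a log2 fold change of 0.36 (adjusted p = 0.532). The median of the 8 was -0.03.

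**Figure D4:**
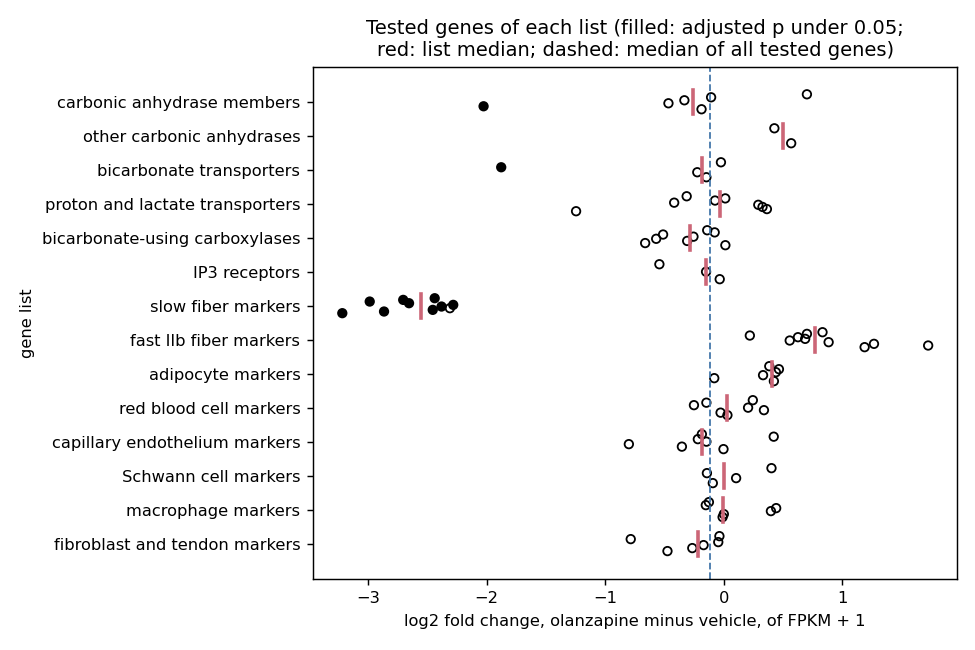
Log2 fold change of FPKM + 1, olanzapine minus vehicle (x axis), of each tested gene in the carbonic anhydrase, transport and marker lists (y axis). Filled points passed an adjusted p of 0.05, open points did not, red bars are list medians and the dashed line is the median of all tested genes, -0.11. Filled points are Car3, Slc4a3 and 9 of the 10 slow fiber markers.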

How the data were processed

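RNA of 6 rats was sequenced by the authors from single ends for 50 cycles, with TruSeq RNA v2 libraries, which do not mark strand. Per the labels and methods, reads were demultiplexed with CASAVA 1.8.2 and aligned to Rn5 with TopHat 2.0.9, and Cufflinks 2.2.1 gave the authors' FPKM per Ensembl gene, reads mapped at more than 1 place being left out. The deposited FPKM are not counts, so no count model was fitted, and the authors' own means, fold changes and test columns were not used. Reads stated for low genes are the smallest whole numbers that fit value times relative depth within 0.1.

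The 10285 genes averaging 1 FPKM or more in the 6 rats were compared on log2(FPKM + 1) with the limma trend test (limma 3.58.1, R 4.3.3) and Benjamini-Hochberg adjustment at 0.05, tested first on simulated data. Fold changes on this scale understate those of low genes. Single values were compared by exact permutation of rats (scipy 1.17.1, Python 3.11.15). The limma p-values weigh a group difference against the spread between rats, with variance information drawn from all tested genes. Groups came from the sample titles. The members and all gene lists were chosen with earlier results of these data known. Named were all 6 members, other family genes above 0 in any rat, in each further list the genes that passed or else the 3 with the largest change, and the 5 genes nearest in pattern to Car3. The result of 1 gene that this rule names is not reported here. Alternatives were median-ratio size factors, a common total without the 50 most abundant genes, a pseudocount of 0.1, no filter, a filter at 10 FPKM, no variance trend, a Poisson likelihood ratio test on summed FPKM, each rat left out and, added after the values were seen, the pair of rats with the highest adipocyte markers left out. RefSeq coordinates of genes were not used, since they are on another build.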

Additional observations from a re-analysis of the deposited data

How the results depend on the processing

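No paired analysis was possible because the groups share no rat numbers and no label pairs a vehicle rat with an olanzapine rat. The sign of every member's fold change held under all alternatives that gave a value, except for Car8, at 0.037 without vehicle rat 11 (-0.32 to 0.037 with 1 rat left out), and Car4, at 0.052 without vehicle rat 9 and olanzapine rat 4. Itpr1 turned to 0.050 with median-ratio size factors and ranged from -0.21 to 0.055 with 1 rat left out. The filter at 10 FPKM left Car4, Car5b, Car8 and both other tested family genes without a value.

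The 1 member called, Car3, became 0 with median-ratio size factors, with no filter, with any 1 rat left out (0 to 0) and without rats 9 and 4, and 2, Car14 with Car3, by the Poisson test (13.9% of all genes), which has no term for the spread between rats. Poisson calls were made at an unadjusted p under 0.05, while all other calls used the adjusted p, so their counts are not alike. Calls among all genes went from 52 to 31 with median-ratio factors, 27 with no filter and 13 to 56 with 1 rat left out. The Poisson test called 1429 at its unadjusted p. The 1 bicarbonate transporter called became 0 with no filter and 0 to 1 with 1 rat left out. Calls in the proton and lactate transport list went from 0 to 1 with the filter at 10 FPKM and to 3, Bsg among them, by the Poisson test. In the carboxylase list they went from 0 to 2 by the Poisson test. The median-ratio factors moved the median log2 fold change of all genes from -0.11 to 0.03. Tests of genes near the filter, such as Car5b and Car8, are limited by depth, which was lowest in vehicle rat 11.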
